A study of Mus musculus with 24 samples.

Results

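MiR-9 and miR-124 are described here by their 4 mature arms, listed in the tables as mmu-miR-9-5p, mmu-miR-9-3p, mmu-miR-124-3p, and mmu-miR-124-5p and written below without the prefix. The arms were chosen by name, and all 4 were found among the 1531 mature mouse miRNAs counted in each of 24 libraries. Small RNA was sequenced from the right cerebellum, striatum/thalamus, and cortex of CD1 mouse pups of both sexes at postnatal day 9. The 4 pups with hypoxic-ischemic brain injury (HIBI; pups 1, 4, 5, and 7) had the right common carotid artery cauterized and, after a recovery period with the dam, breathed 8% oxygen for 30 min. The 4 sham pups (pups 2, 3, 6, and 8) had the same anesthesia and neck dissection with the artery left intact and stayed in room air. Tissue was taken 30 min after the end of hypoxia or normoxia, and each pup gave 1 library per region. In this model the cerebellum is exposed to hypoxia without the loss of carotid flow, and there was no group with hypoxia alone.

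A miRNA hairpin is cut into a pair of arms, called 5p and 3p after their ends of the hairpin. One arm is usually loaded into an Argonaute protein and pairs through its seed, bases 2 to 8, with sites in messenger RNAs, which are then translated less or degraded. MiR-124 is a marker of differentiated neurons, where it holds down transcripts of non-neuronal cells, and its 3p arm is the one known to do most of this work. MiR-9 is made in neural progenitors and in neurons, and both of its arms are active, with targets that include the neuronal gene repressor REST and its partner CoREST. All values below are from bulk tissue, in which fewer cells of a type and less of a miRNA per cell cannot be told apart.

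The mature sequences of the miR-9 arms are shown because their composition returns with the spread between pups, below. RefSeq (GRCm38.p6) held 2 of the 4 arms. Capitals mark the seed.
miR-9-5p: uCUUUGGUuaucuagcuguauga
miR-9-3p: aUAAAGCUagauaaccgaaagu
The 5p arm has 23 bases with 34.8% G or C, and the 3p arm has 22 bases with 31.8%. Of the 1291 miRNAs of the tables with a RefSeq sequence, 56 had a lower share of G and C than miR-9-5p and 15 a lower share than miR-9-3p, against a median of 54.2%. No other miRNA among these 1291 had the seed of either arm.

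MiR-9 comes from 3 hairpins, all on the + strand of GRCm38.p6, and their sequences are shown because they hold identical arms. Capitals mark the arms, with the 5p arm first.
Mir9-1, chr3:88215598-88215686: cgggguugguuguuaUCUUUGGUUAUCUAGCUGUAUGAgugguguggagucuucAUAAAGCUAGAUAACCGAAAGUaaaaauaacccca
Mir9-2, chr13:83738814-83738885: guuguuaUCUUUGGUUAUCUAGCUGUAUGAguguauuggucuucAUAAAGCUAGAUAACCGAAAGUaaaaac
Mir9-3, chr7:79505264-79505353: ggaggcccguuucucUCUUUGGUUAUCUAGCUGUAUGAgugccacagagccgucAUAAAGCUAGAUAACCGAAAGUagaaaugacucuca
In the GENCODE M21 annotation, Mir9-1 lies in an intron of the long non-coding RNA Gm3764, with the miRNA gene Gm25641 on the other strand. Mir9-3 lies in an intron of its host Mir9-3hg, and Mir9-2 in an exon of C130071C03Rik. The loops between the arms are 16, 14, and 16 bases long in Mir9-1, Mir9-2, and Mir9-3 and differ in sequence. A read of either mature arm therefore has the same sequence whichever hairpin it came from, and the counts below are sums over the 3 loci.

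The libraries held between 1254185 and 3406624 reads on mouse miRNAs. Levels are given as CPM, the reads of a miRNA in every 1000000 of these reads, scaled over the 24 libraries by the trimmed mean of M-values (TMM), and shares of a library are given before this scaling. Each of the 36 pairs of libraries within a group differed by more than counting error. Defining markers of other cells were present in each region. The oligodendrocyte miRNAs (2 of the 3 listed were in the tables) summed to 4978 to 8013 CPM in the cerebellum and to 805 to 4426 CPM in the other regions. Skeletal muscle miRNAs summed to between 343 and 627 CPM in the cerebellum and to at most 149 CPM elsewhere. Myeloid miRNAs summed to at most 54.3 CPM in any library.

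MiR-9-5p was among the most abundant miRNAs of each region, and its level was lowest in the striatum/thalamus. In the cerebellum it made up between 5.59% and 13.3% of a library and ranked 1 to 4 of all miRNAs. It made up 5.55% to 7.77% of the cortex libraries and 2.07% to 6.33% of the striatum/thalamus libraries. In sham pups 2, 3, 6, and 8 its level was 70574, 66750.5, 92066, and 98737 CPM in the cerebellum. It was 84557, 66488, 78127, and 91821 CPM in the sham cortex and 26350.1, 43949.9, 66089.8, and 25336.5 CPM in the sham striatum/thalamus. Sham cerebellum and sham cortex overlapped throughout, and every sham striatum/thalamus library was below every sham library of the other regions. In HIBI pups 1, 4, 5, and 7 its level was 44841, 94309, 122255, and 109083 CPM in the cerebellum. It was 55533, 59851, 83179, and 75306 CPM in the HIBI cortex and 17125, 19943, 58834, and 28561 CPM in the HIBI striatum/thalamus. Pup 5 was the highest of the HIBI pups in all 3 regions, and pup 1 was the lowest in all 3. The mean level over the 8 pups was 87327 ± 25082 CPM in the cerebellum, 74358 ± 12698 CPM in the cortex, and 35774 ± 18384 CPM in the striatum/thalamus (SD, n = 8).

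MiR-9-3p, the partner arm with a seed and targets of its own, ranked 13 to 51 and was also lowest in the striatum/thalamus. Sham pups 2, 3, 6, and 8 had 7848, 8427, 12109.9, and 17545 CPM in the cerebellum, 9806, 8584, 11546, and 12577 CPM in the cortex, and 3871, 5742, 11467, and 3117 CPM in the striatum/thalamus. Pup 6 stood above the other sham pups in the striatum/thalamus, at a level within the range of the other regions. HIBI pups 1, 4, 5, and 7 had 4805, 13716, 22805, and 20326 CPM in the cerebellum, 7753, 9991, 10964, and 10934 CPM in the cortex, and 2774, 4306, 7515, and 2691 CPM in the striatum/thalamus. The cerebellum held both a low pup, pup 1, and the highest miR-9-3p levels of the study. In each of the 8 pups, both miR-9 arms were higher in the cerebellum than in the striatum/thalamus, and higher in the cortex than in the striatum/thalamus. Between cerebellum and cortex the pups divided, with miR-9-5p higher in the cerebellum in 6 of 8 and miR-9-3p in 5 of 8.

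MiR-124-3p, the arm that marks neurons, made up between 2.75% and 5.61% of every library and ranked 4 to 10. Sham pups 2, 3, 6, and 8 had 36419, 30416, 27639, and 43078 CPM in the cerebellum, 43209, 45669, 46564, and 41065 CPM in the cortex, and 36267, 41026, 53517.5, and 36255 CPM in the striatum/thalamus. HIBI pups 1, 4, 5, and 7 had 36229, 40312, 25179.8, and 30246 CPM in the cerebellum, 56132, 41084, 37951, and 35552 CPM in the cortex, and 31428.5, 29924, 27755, and 32630.2 CPM in the striatum/thalamus. The regions overlapped in both groups of pups, except that each HIBI cortex library was above each HIBI striatum/thalamus library. The mean over the 8 pups was 33690.0 ± 6296 CPM in the cerebellum, 43403 ± 6318 CPM in the cortex, and 36100.4 ± 8188 CPM in the striatum/thalamus. The cortex was above the cerebellum in 7 of 8 pups and above the striatum/thalamus in 7 of 8, while the striatum/thalamus was above the cerebellum in 4 of 8.

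MiR-124-5p, the arm that accumulates least, was a minor product at 0.0104% to 0.0505% of a library, and it was the arm with the clearest order of regions. In sham pups 2, 3, 6, and 8 its raw count was 1158, 858, 814, and 1396 reads in the cerebellum, 540, 892, 703, and 772 reads in the cortex, and 311, 260, 238, and 255 reads in the striatum/thalamus. In CPM these were 487, 483, 394, and 523 in the cerebellum, 280.0, 313, 231, and 360.2 in the cortex, and 171, 110.1, 120.3, and 116 in the striatum/thalamus. The 3 regions did not overlap in sham pups. In HIBI pups 1, 4, 5, and 7 the raw count was 539, 963, 669, and 1106 reads in the cerebellum, 334, 407, 519, and 604 reads in the cortex, and 185, 227, 258, and 247 reads in the striatum/thalamus. In CPM these were 345, 444, 249.9, and 513 in the cerebellum, 184, 205, 185, and 228 in the cortex, and 109, 125, 122, and 101 in the striatum/thalamus. The regions did not overlap in HIBI pups either, and all 8 pups had the order cerebellum, cortex, striatum/thalamus.

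**Figure D1:**
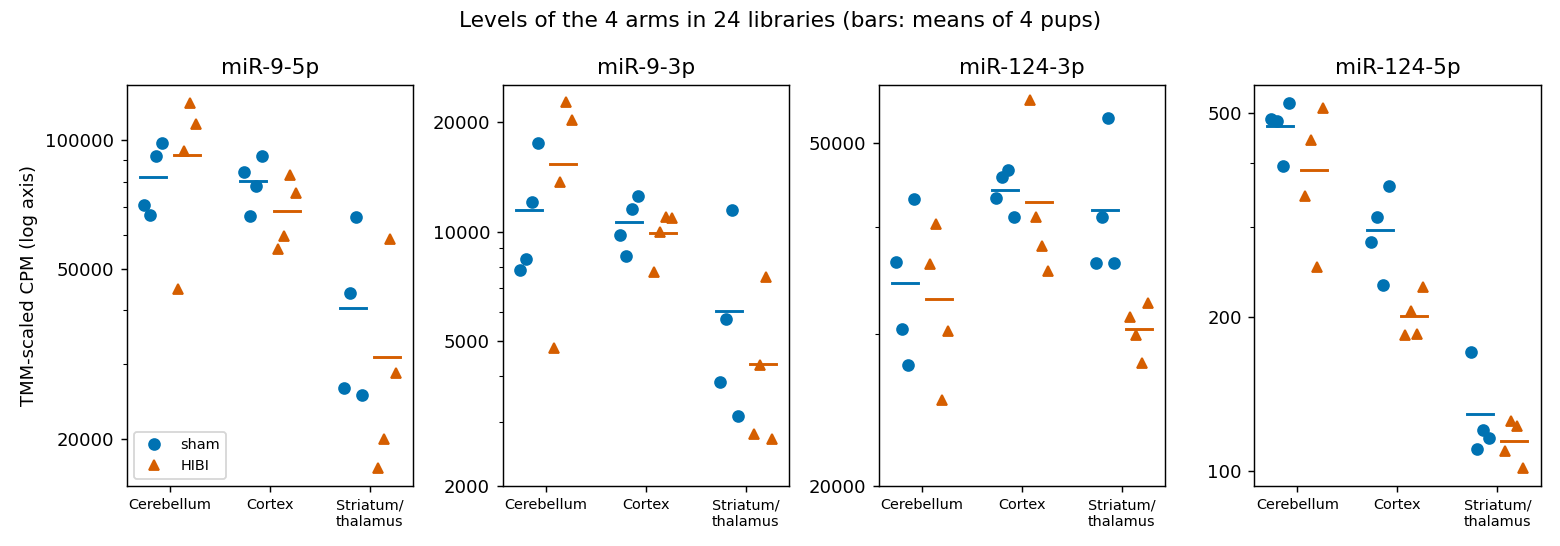
TMM-scaled CPM (log axes) of miR-9-5p, miR-9-3p, miR-124-3p, and miR-124-5p in the cerebellum, cortex, and striatum/thalamus of 4 sham pups (circles) and 4 HIBI pups (triangles), with horizontal bars at group means. The miR-9 arms are lowest in the striatum/thalamus with a wide spread between pups, miR-124-3p overlaps across regions, and miR-124-5p steps down from a mean of 430 CPM in the cerebellum to 248 CPM in the cortex and 122 CPM in the striatum/thalamus (n = 8).

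To compare the regions, edgeR's quasi-likelihood test was fitted to the 3 regions of the sham pups and, separately, of the HIBI pups. A miRNA was counted as differing between regions with a fold change above 1.5 and a Benjamini-Hochberg adjusted p-value under 0.05 over all miRNAs tested. The comparisons of a group share libraries, since each region enters a pair of them. In the cortex against the cerebellum, 1 of the 4 arms passed in sham pups, where 60.5% of all 423 miRNAs did, and 1 of 4 in HIBI pups, where 29.6% of 446 did. In the striatum/thalamus against the cerebellum, 3 of 4 passed in sham pups, against 62.6% of all miRNAs, and 3 of 4 in HIBI pups, against 49.1%. In the cortex against the striatum/thalamus, 2 of 4 passed in sham pups, against 36.6%, and 1 of 4 in HIBI pups, against 28.0%. Large regional differences were therefore common among miRNAs, and the counts for these arms are to be read against those shares.

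MiR-9-5p was lower in the striatum/thalamus than in the cerebellum by a log2 difference of -0.97 in sham pups (SE 0.227, adjusted p = 0.00155) and of -1.54 in HIBI pups (SE 0.370, adjusted p = 0.00303). MiR-9-3p was lower by -0.89 in sham pups (SE 0.307, adjusted p = 0.0184) and by -1.80 in HIBI pups (SE 0.421, adjusted p = 0.00268). Without sham pup 8 the sham differences were -0.67 (adjusted p = 0.0609) and -0.35 (adjusted p = 0.379), and neither arm passed. Between cortex and cerebellum the miR-9 arms did not pass, with log2 differences of -0.22 for miR-9-5p and -0.30 for miR-9-3p in sham pups. In HIBI pups those differences were -0.54 (95% interval -1.32 to 0.23) and -0.75 (-1.62 to 0.13), so that differences above 1.5-fold remain within the intervals.

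In the cortex against the striatum/thalamus, miR-9-5p was higher by 0.75 in sham pups (SE 0.226, adjusted p = 0.0157). MiR-9-3p differed by 0.59 (SE 0.306, adjusted p = 0.148) and did not pass. The miR-9-5p difference was 0.59 (adjusted p = 0.115) without sham pup 2 and 0.58 (adjusted p = 0.160) without sham pup 8, and miR-9-3p passed without sham pup 6, at 1.10 (adjusted p = 0.0125). In HIBI pups the differences were 1.00 (SE 0.365, adjusted p = 0.0520) for miR-9-5p and 1.05 (SE 0.413, adjusted p = 0.0650) for miR-9-3p, neither under the threshold of the adjusted p. The 3 regions of a pup are from the same animal. With the pup as a replicate block these were 1.14 for miR-9-5p (SE 0.220, adjusted p = 0.00147) and 1.14 for miR-9-3p (SE 0.292, adjusted p = 0.00771), and both passed. Without the block, both passed without HIBI pup 1 (1.01 and 1.10, each with adjusted p = 0.0313) and without HIBI pup 5 (1.48 and 1.47, adjusted p = 0.00915 and 0.0263). Neither passed without HIBI pup 4 or without HIBI pup 7, where 47 of 446 and 23 of 443 of all miRNAs did. Without pups 1 and 5 it was 108 of 435 and 124 of 441. With each HIBI pup left out in turn, the differences were 0.91 to 1.48 for miR-9-5p and 0.82 to 1.47 for miR-9-3p.

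MiR-124-3p passed in none of the 6 regional comparisons. Its largest log2 difference was 0.36 higher in the striatum/thalamus than in the cerebellum of sham pups (SE 0.158, adjusted p = 0.0550), a fold of 1.28 with a 95% interval on the log2 scale of 0.03 to 0.70. In HIBI pups the same difference was -0.05 (95% interval -0.48 to 0.38). Between cortex and striatum/thalamus its sign depended on the CPM minimum, since the sham difference was -0.19 here, 0.05 with miRNAs above 1 CPM included, and 0.09 with no minimum.

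MiR-124-5p passed in all 6 comparisons. The oligodendrocyte and skeletal muscle miRNAs were also highest in the cerebellum, as were those of choroid plexus in sham pups, at a mean of 5451 CPM against 2519 CPM in the cortex and 2181 CPM in the striatum/thalamus. Erythrocyte miRNAs were at 1122, 657, and 766 CPM in the same order. Endothelial miRNAs were lowest in the striatum/thalamus, as miR-9 was, at 1881 CPM in sham pups against 2954 CPM in the cerebellum and 3577 CPM in the cortex, and mural miRNAs likewise, at 2067 CPM against 3118 and 3198 CPM. The part of these lists in the regional differences of any arm was not tested. Against the cerebellum it was lower in the cortex by -0.87 in sham pups (SE 0.215, adjusted p = 0.00303) and by -1.04 in HIBI pups (SE 0.227, adjusted p = 0.00303). It was also lower in the striatum/thalamus than in the cerebellum, by -1.76 in sham pups (SE 0.221, adjusted p = 7.31e-06) and by -1.69 in HIBI pups (SE 0.232, adjusted p = 5.49e-05), a 3.38-fold and a 3.24-fold difference. The cortex was above the striatum/thalamus by 0.89 in sham pups (SE 0.217, adjusted p = 0.00498) and by 0.65 in HIBI pups (SE 0.227, adjusted p = 0.0439). This last pair was the least stable. The sham difference was 0.77 (adjusted p = 0.0565) without pup 3, and the HIBI difference was 0.76 (adjusted p = 0.0741), 0.71 (adjusted p = 0.127), and 0.51 (adjusted p = 0.219) without pups 1, 4, and 7.

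**Figure D2:**
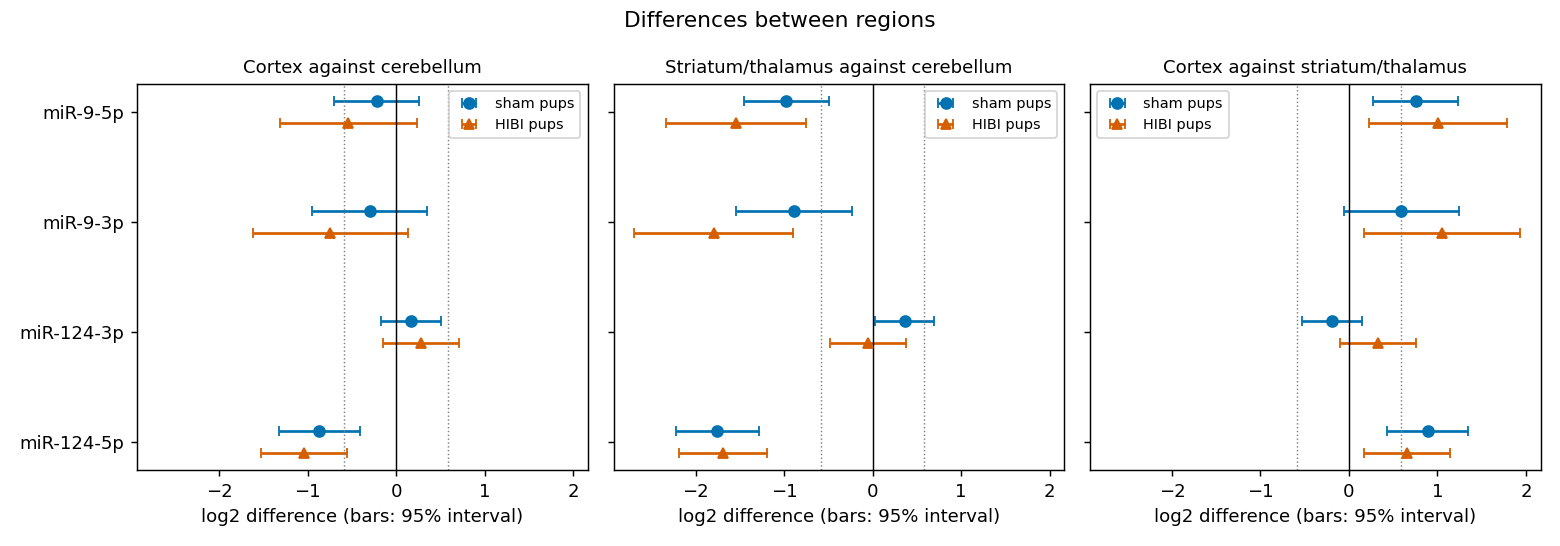
Log2 differences between regions from edgeR's quasi-likelihood fit in sham pups (circles) and HIBI pups (triangles), with bars for the 95% interval and dotted lines at a 1.5-fold difference in either direction. In the striatum/thalamus against the cerebellum, miR-9-5p, miR-9-3p, and miR-124-5p lie between -0.89 and -1.80 while miR-124-3p lies at 0.36 and -0.05.

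The ratio of the arms of a hairpin in the same library needs no scaling between libraries. For miR-124, whose arms behaved differently across regions, the number of 3p reads per 5p read rose from the cerebellum to the cortex to the striatum/thalamus. In the cerebellum, sham pups 2, 3, 6, and 8 had 74.8, 62.9, 70.2, and 82.3 and HIBI pups 1, 4, 5, and 7 had 105, 90.9, 101, and 59.0 reads of miR-124-3p per read of miR-124-5p. In the cortex, sham pups had 154, 146, 202, and 114 and HIBI pups had 305, 201, 205, and 156. In the striatum/thalamus, sham pups had 213, 373, 445, and 313 and HIBI pups had 288, 239, 227, and 322. Every cerebellum library was below every library of the other regions, while cortex and striatum/thalamus overlapped. The means were 80.8 ± 17.1, 185 ± 58.1, and 302 ± 79.0 (SD, n = 8).

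As a share of both arms, the 5p arm of miR-124 was between 0.942% (95% Wilson interval 0.866% to 1.02%) and 1.67% (1.57% to 1.77%) in the cerebellum. It was between 0.224% (0.198% to 0.255%) and 0.468% (0.419% to 0.523%) in the striatum/thalamus. These intervals cover the counting error alone, and the reads carry no molecular identifiers in the counts used here.

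On the log2 scale of 5p to 3p, the cortex was below the cerebellum by -1.17 (SD of the differences 0.347), lower in 8 of 8 pups (two-sided exact sign-flip permutation test, p = 0.00781, adjusted p = 0.0234 over 6 comparisons). The striatum/thalamus was below the cerebellum by -1.89 (SD 0.593), also in 8 of 8 pups, with the same exact p and adjusted p, and this p is the smallest that 8 pups allow. The cortex was above the striatum/thalamus by 0.72 (SD 0.595) in 7 of 8 pups (exact permutation p = 0.0156, adjusted p = 0.0313), and pup 1 went the other way. That last difference had an adjusted p of 0.0625 by the exact permutation test when any pup other than pup 1 was left out, with values of 0.62 to 0.80. With 7 pups and pup 1 going the other way, the test could give no smaller value here. It therefore cannot tell whether the difference depends on single pups. The sham pups alone gave 1.10 and the HIBI pups alone 0.34 for it, which were not tested against each other.

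For miR-9 the ratio did not follow the regions. In the cerebellum, sham pups 2, 3, 6, and 8 had 8.99, 7.92, 7.60, and 5.63 and HIBI pups 1, 4, 5, and 7 had 9.33, 6.88, 5.36, and 5.37 reads of miR-9-5p per read of miR-9-3p. In the cortex, sham pups had 8.62, 7.75, 6.77, and 7.30 and HIBI pups had 7.16, 5.99, 7.59, and 6.89. In the striatum/thalamus, sham pups had 6.81, 7.65, 5.76, and 8.13 and HIBI pups had 6.17, 4.63, 7.83, and 10.6. Means were 7.14 ± 1.59 in the cerebellum, 7.26 ± 0.775 in the cortex, and 7.20 ± 1.81 in the striatum/thalamus, so that the 3p arm was 12.2% to 12.7% of both. The log2 differences between regions were 0.05, 0.01, and 0.04 (exact sign-flip permutation test, adjusted p from 0.881 to 0.984), against SDs of 0.321, 0.604, and 0.328 for the differences within pups. Pups 5, 7, and 8, the lowest in the cerebellum, were the highest in the striatum/thalamus.

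Between HIBI and sham, 0 of the 6 arm ratios differed by the exact permutation test after adjustment (0 also at an unadjusted p under 0.05). For miR-9 the log2 differences of 5p to 3p were -0.18 in the cerebellum (exact p = 0.457), -0.01 in the striatum/thalamus (exact p = 1), and -0.14 in the cortex (exact p = 0.229). For miR-124 they were -0.27 (exact p = 0.229), 0.28 (exact p = 0.314), and -0.48 (exact p = 0.0857, adjusted p = 0.457), and the smallest p that 4 against 4 pups allow is 0.0286.

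**Figure D3:**
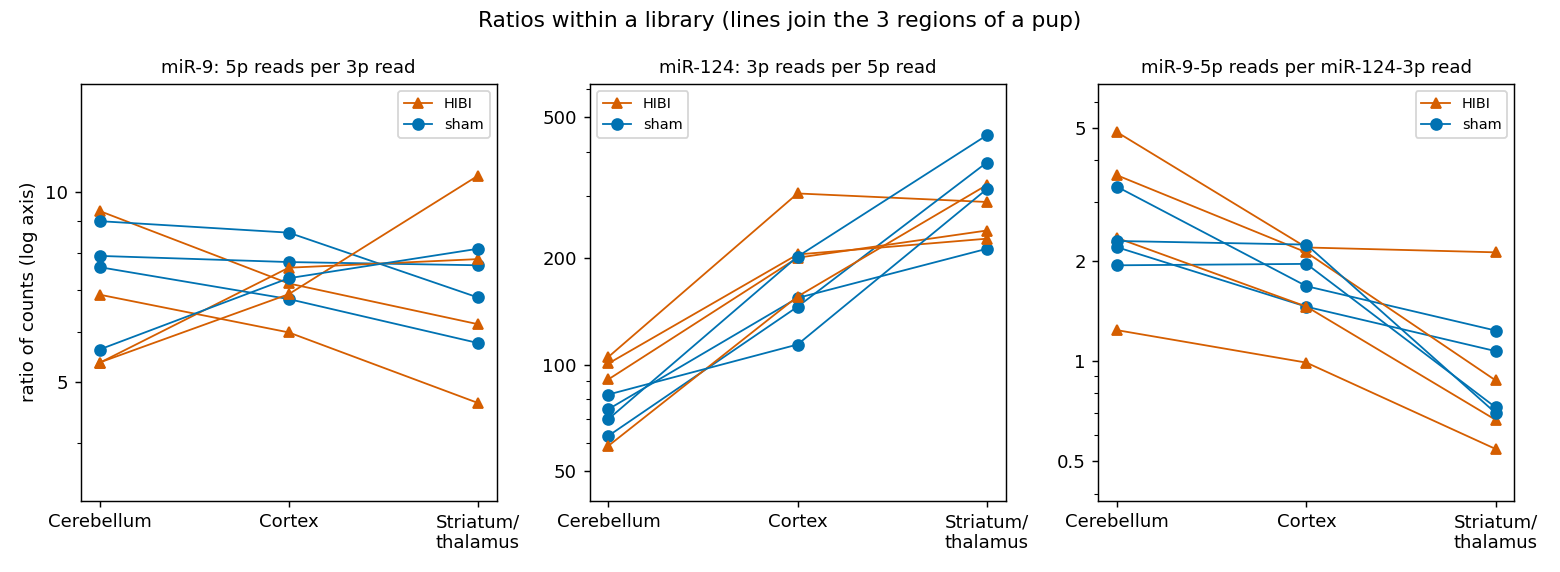
Ratios of raw counts within a library on log axes, with lines joining the 3 regions of a pup, for sham (circles) and HIBI pups (triangles). The miR-9 arm ratio stays between 4.63 and 10.6 with crossing lines, the miR-124 ratio climbs from 59.0 to 105 in the cerebellum to 213 to 445 in the striatum/thalamus, and miR-9-5p per miR-124-3p falls in the same order of regions.

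The most abundant arms of each family were also compared with each other. There were 2.72 ± 1.14 reads of miR-9-5p per read of miR-124-3p in the cerebellum, 1.76 ± 0.442 in the cortex, and 0.992 ± 0.509 in the striatum/thalamus (SD, n = 8). The ratio was lower in the striatum/thalamus than in the cerebellum by -1.48 on the log2 scale and the cortex was above the striatum/thalamus by 0.91, each in 8 of 8 pups (exact sign-flip permutation test, adjusted p = 0.0234). The cortex was below the cerebellum by -0.57 in 7 of 8 pups (adjusted p = 0.0313 by the exact permutation test). Without any pup other than pup 2 that difference was -0.48 to -0.64, with an adjusted p of 0.0625 by the exact permutation test. This is again the smallest value possible with 7 pups when pup 2 goes the other way, so it does not bear on stability. HIBI and sham differed by 0.16 in the cerebellum (exact p = 0.714), 0.00 in the striatum/thalamus (exact p = 1), and -0.17 in the cortex (exact p = 0.600). As given below, the level of miR-9-5p was related to how the counts of a library followed base composition. The ratio was not corrected for this, and its part in these differences was not tested. In the HIBI striatum/thalamus, pup 5 had a ratio of 2.12, against 0.545, 0.666, and 0.875 in pups 1, 4, and 7.

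The comparison of HIBI with sham asks whether the injury had changed these miRNAs by 30 min. By the study's criteria (more than 1.5-fold, and p under 0.05 before adjustment), 0 of the 4 arms passed in the cerebellum, where 7.83% of 434 miRNAs did. Likewise 0 of 4 passed in the striatum/thalamus, against 2.75% of 436, and 0 of 4 in the cortex, against 3.41% of 410. Without the fold criterion, edgeR's quasi-likelihood test gave a p under 0.05 for 0 arms in the cerebellum and for 1 arm in each of the other regions. Over all miRNAs tested, it did so for 44 of 434 in the cerebellum, 14 of 436 in the striatum/thalamus, and 19 of 410 in the cortex. DESeq2 gave a p under 0.05 for 0 arms in the striatum/thalamus, 1 in the cortex, and 0 in the cerebellum. That count was not made over all miRNAs, so the 1 arm has no share beside it. By the study's criteria DESeq2 passed 0 arms in each region. It passed 45 of 434 miRNAs in the cerebellum, 19 of 436 in the striatum/thalamus, and 13 of 410 in the cortex. The intervals were wider for miR-9 than for miR-124-3p in the cerebellum and striatum/thalamus, and of similar width in the cortex.

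For miR-9-5p the log2 fold change of HIBI against sham was 0.19 in the cerebellum (95% interval -0.41 to 0.80), -0.34 in the striatum/thalamus (-1.16 to 0.48), and -0.11 in the cortex (-0.47 to 0.24). For miR-9-3p it was 0.44 in the cerebellum (-0.44 to 1.33), -0.42 in the striatum/thalamus (-1.30 to 0.46), and 0.02 in the cortex (-0.35 to 0.38). The cortex intervals lie within a 1.5-fold change in either direction, and those of the other regions do not. HIBI and sham libraries overlapped in each region for both arms. Single pups decided some of these values. Without pup 1, miR-9-3p in the cerebellum was 0.74 (adjusted p = 0.284) and passed the study's criteria, where 62 of all 430 miRNAs did. Without pup 5, miR-9-5p in the striatum/thalamus was -0.80 (adjusted p = 0.389) and passed them, where 38 of all 427 miRNAs did. With every pup kept, 34 of 434 miRNAs passed in the cerebellum and 12 of 436 in the striatum/thalamus. Other pups carried the values the other way. Without pup 6 the striatum/thalamus differences were 0.03 for miR-9-5p and 0.12 for miR-9-3p, and without pup 5 those of the cerebellum were 0.0060 and 0.16.

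With the libraries of a region scaled among themselves, miR-124-3p in the striatum/thalamus was the one arm whose HIBI and sham libraries did not overlap. In the 24-library scaling it was at 27755 to 32630.2 CPM with HIBI and 36255 to 53517.5 CPM in sham pups. All miRNAs without overlap made up 2.29% of those tested in that region, 3.69% in the cerebellum, and 4.15% in the cortex. The log2 fold change was -0.40 (SE 0.162, 95% interval -0.76 to -0.04, adjusted p = 0.980 by edgeR's quasi-likelihood test), a fold of 1.32 that did not reach 1.5. With each pup left out in turn it was between -0.44 and -0.21, and it was nearest 0 without sham pup 6. The p was 0.0307 by edgeR and 0.0286 by a two-sided exact permutation test on log2(CPM + 1), the smallest that 4 against 4 pups allow, and the exact test's adjusted p was 0.343 over the 12 combinations of arm and region. In this region no arm had a p under 0.05 with library sizes only, RLE scaling, an average above 1 CPM, or no minimum. DESeq2 and edgeR's exact test gave none either. With upper quartile scaling or the arms left out of TMM, 1 arm did. The log2 fold change ran from -0.42 to -0.33 over these alternatives. The oligodendrocyte miRNAs of the same libraries summed to 1017 to 2604 CPM with HIBI and 1685 to 4426 CPM in sham pups, and their part in the difference was not tested. In the other regions miR-124-3p differed by -0.04 (95% interval -0.50 to 0.43) in the cerebellum and 0.08 (-0.28 to 0.44) in the cortex.

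MiR-124-5p in the cortex was 184 to 228 CPM with HIBI and 231 to 360.2 CPM in sham pups in the 24-library scaling, with adjoining ranges. With the cortex libraries scaled among themselves the groups overlapped, and its log2 fold change was -0.44 (SE 0.175, 95% interval -0.82 to -0.05, adjusted p = 0.826 by edgeR's quasi-likelihood test), a fold of 1.35. The p was 0.0288 by edgeR and 0.0857 by the exact permutation test. It differed by -0.27 in the cerebellum (95% interval -0.78 to 0.23) and by -0.14 in the striatum/thalamus (-0.64 to 0.37).

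The study looked for effects that differ between the regions that lost carotid flow and the cerebellum. This contrast, the mean injury effect in striatum/thalamus and cortex minus that in the cerebellum, was -0.36 for miR-9-5p (SE 0.386), -0.57 for miR-9-3p (SE 0.483), -0.05 for miR-124-3p (SE 0.235), and 0.06 for miR-124-5p (SE 0.261). None of the 4 arms passed an adjusted p under 0.05 or an unadjusted p under 0.05 in edgeR's quasi-likelihood test or in DESeq2. Of all 435 miRNAs tested, 0% passed with edgeR, 70 had an unadjusted p under 0.05, and 6 passed with DESeq2.

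**Figure D4:**
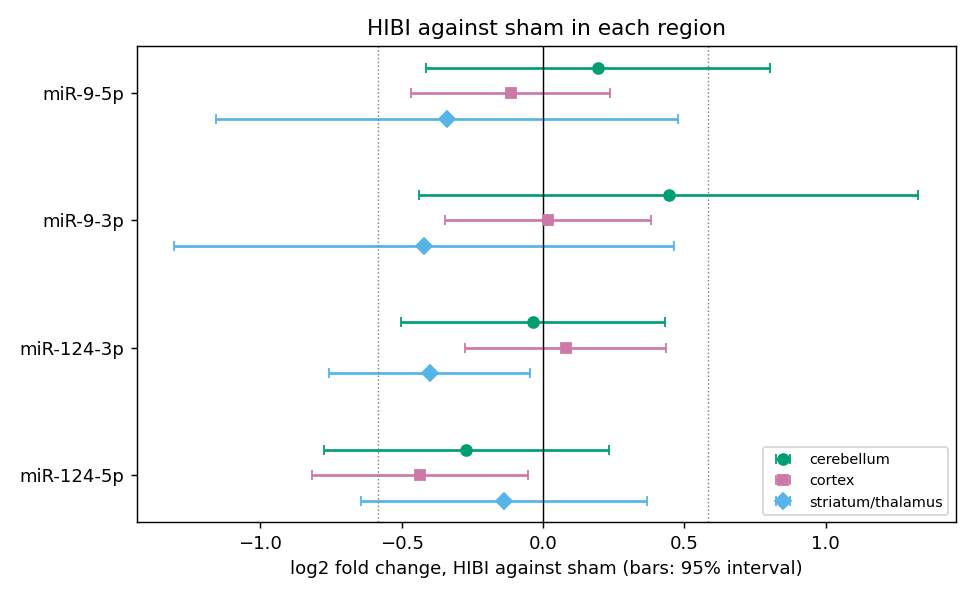
Log2 fold change of HIBI against sham for each arm in the cerebellum (circles), cortex (squares), and striatum/thalamus (diamonds), with bars for the 95% interval of edgeR's quasi-likelihood fit and dotted lines at a 1.5-fold change. All 12 estimates lie inside the dotted lines, from -0.44 to 0.44, and those of miR-9 in the cerebellum and striatum/thalamus have the widest intervals.

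The spread among pups separated the families. Within groups, the pooled SD of log2(CPM + 1) was 0.24 for miR-124-3p and 0.27 for miR-124-5p, which ranked 34 and 59 from the lowest among 380 miRNAs above 10 CPM on average in every region. It was 0.53 for miR-9-5p and 0.66 for miR-9-3p, which ranked 281 and 335, against a median of 0.42. The deviations of the miR-9 arms from their group means moved together, with r = 0.89 over the 24 libraries, and those of the miR-124 arms did not, with r = 0.09. Both values are descriptions over libraries of 8 pups.

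The libraries also differed in how their counts followed base composition. For each library, the deviation of 323 other miRNAs from their group means was ranked against the share of G and C in their sequences, and this rho ran from -0.75 to 0.58. It was lowest in the striatum/thalamus of pup 5, where miR-9-5p was 1.10 above its group mean on the log2 scale, and was 0.56 in the cerebellum of pup 1, where miR-9-5p was -0.95 from it. Across the 8 pups, with both measures centred on their group means, the deviation of miR-9-5p was related to this rho in the cerebellum (Pearson r = -0.86, permutation p = 0.000794, adjusted p = 0.00327; Spearman rho = -0.95, p = 0.00114, adjusted p = 0.0134) and in the striatum/thalamus (r = -0.97, p = 0.000422, adjusted p = 0.00327; rho = -0.83, p = 0.0154, adjusted p = 0.0615 by permutation). Without the 2 pups farthest from the median, r was -0.84 and -0.92. In the cortex r was -0.80 (permutation p = 0.0301, adjusted p = 0.0723) and rho -0.74 (p = 0.0458, adjusted p = 0.137), with r = -0.78 without 2 pups. Both measures come from the same libraries.

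For miR-9-3p the same r was -0.89 in the cerebellum (permutation p = 0.000818, adjusted p = 0.00327; rho = -0.93, adjusted p = 0.0134; r = -0.88 without 2 pups). It was -0.84 in the striatum/thalamus (permutation p = 0.0101, adjusted p = 0.0304; rho = -0.64, adjusted p = 0.231), where it rested on 2 pups and was -0.47 without them. In the cortex it was -0.52 (permutation p = 0.190, adjusted p = 0.325; rho = -0.52, adjusted p = 0.295; r = -0.58 without 2 pups). For the miR-124 arms r was between -0.41 and 0.64 over the 3 regions, with adjusted p-values of 0.134 or more by permutation and rho between -0.52 and 0.60. In all, 12 relations were computed.

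A correction of each library for G and C content was chosen after the data had been seen. It was fitted to deviations from the mean over all libraries of a comparison, not from group means. Any trend with G and C content between the groups compared was thereby removed as well, and its part in the corrected values was not tested. With the correction the striatum/thalamus remained below the cerebellum for miR-9, and the difference in HIBI pups was smaller. MiR-9-5p was then lower by -0.78 in sham pups (adjusted p = 0.000458) and by -0.70 in HIBI pups (adjusted p = 0.00258), where the uncorrected HIBI difference was -1.54. MiR-9-3p was lower by -0.87 (adjusted p = 0.000839) and by -0.84 (adjusted p = 0.00918), where the uncorrected HIBI difference was -1.80. Over the miRNAs tested, the median HIBI difference moved by 0.23 with the correction. The corrected fits between regions held only miRNAs with a RefSeq sequence, 361 in sham and 381 in HIBI pups, against 423 and 446 uncorrected. The medians and adjusted p-values with and without the correction are thus over different sets. Neither miR-124 arm had a sequence, so neither could be corrected. In the cortex against the striatum/thalamus, miR-9-5p was 0.54 in sham pups (adjusted p = 0.0153), below the 1.5-fold limit, and 0.64 in HIBI pups (adjusted p = 0.0108). For HIBI against sham, the cerebellum values became -0.21 for miR-9-5p and -0.11 for miR-9-3p, and none of the miR-9 values passed in any region.

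**Figure D5:**
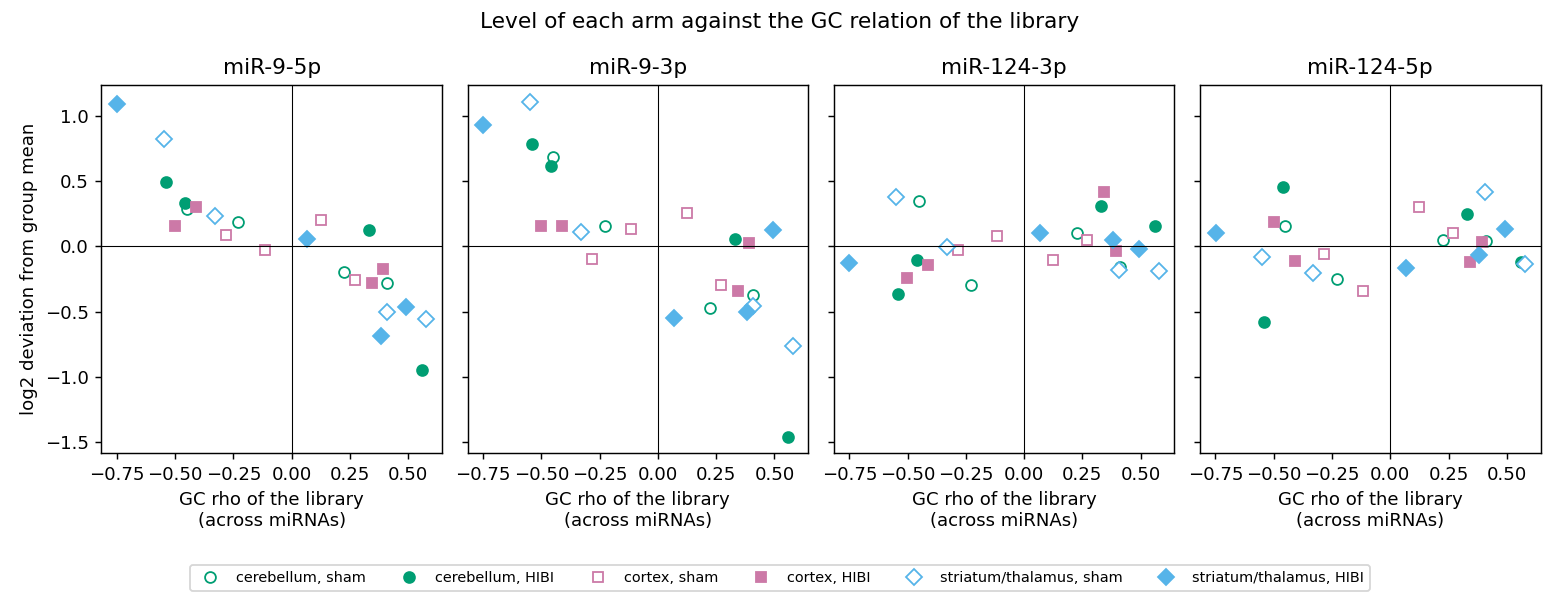
Log2 deviation of each arm from its group mean in each of 24 libraries against the rank correlation (rho) of 323 other miRNAs' deviations with the share of G and C in their sequences in the same library; colors and shapes give the region, and filled points are HIBI pups. The miR-9 arms fall from upper left to lower right, from 1.10 to -0.95 for miR-9-5p, and the miR-124 arms lie between -0.58 and 0.45.

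The levels of a pup, as deviations from its group means, were also compared between its regions. Of 12 relations, that of miR-9-3p between cortex and cerebellum was the one that passed in both measures (Pearson r = 0.91, permutation p = 0.000719, adjusted p = 0.00863; Spearman rho = 0.95, p = 0.00114, adjusted p = 0.0137), and r was 0.91 without pups 1 and 3. For miR-9-5p between the same regions r was 0.77 (permutation p = 0.0158, adjusted p = 0.0951) and rho 0.90 (p = 0.00456, adjusted p = 0.0274), and r was 0.52 without pups 1 and 3. None of the relations with the striatum/thalamus passed, for any arm, nor did any relation of the miR-124 arms (adjusted permutation p of 0.147 or more).

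The miRNAs most like each arm over the 24 libraries differed between the families. MiR-9-5p was most like miR-21a-5p (r = 0.96), miR-30e-3p (0.96), and let-7i-5p (0.96), and miR-9-3p was most like miR-26b-5p (0.94), let-7f-5p (0.94), and let-7g-5p (0.94). The mature sequences of these 6 hold between 31.8% and 45.5% G and C, all below the median of 48% among the candidates. MiR-124-5p was most like miR-181a-1-3p (0.96), miR-497a-5p (0.95), and miR-151-5p (0.93), which have the same order of regions. Sham means of miR-497a-5p were 453 CPM in the cerebellum, 133 CPM in the cortex, and 28.3 CPM in the striatum/thalamus. MiR-124-3p had no close match, with miR-377-5p (0.63), miR-138-1-3p (0.62), and miR-673-5p (0.59) nearest. These r describe libraries that share region, pup, and base composition, and carry no p-value. Between the members, miR-9-5p and miR-9-3p had r = 0.95 and miR-124-3p and miR-124-5p r = -0.02.

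A list of 16 other miRNAs known from neurons, neural progenitors, and their differentiation was set beside these arms, and 15 of them passed the CPM minimum. For HIBI against sham, 2 of 15 passed in the cerebellum by the study's criteria, where 7.83% of all miRNAs did, against 0 of 15 in either of the other regions, where 2.75% and 3.41% did. MiR-137-3p, a neuronal miRNA, was higher by 1.77 in the cerebellum (SE 0.702, adjusted p = 0.432), at a mean of 18.5 ± 10.2 CPM against 5.63 ± 6.98 CPM in sham pups, a level under the minimum of 10 CPM, so that it was tested only through its level in HIBI pups. Let-7b-5p, which increases as progenitors differentiate, was lower by -0.95 (SE 0.287, adjusted p = 0.432), at 23138 ± 4257 CPM against 45161 ± 18213 CPM. The median log2 fold changes of the 15 were -0.01 for the cerebellum, -0.03 for the striatum/thalamus, and -0.08 for the cortex, beside 0.11, -0.03, and -0.02 over all miRNAs tested.

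Between regions the list moved in both directions. In sham pups, 5 of the 15 were higher in the cortex than in the cerebellum and 6 lower, and 4 were higher and 8 lower in the striatum/thalamus than there. Between the others, 9 were higher and 1 was lower in the cortex than in the striatum/thalamus. Over all 423 miRNAs tested in sham pups, the same comparisons had 124 higher and 132 lower, 138 and 127, and 64 and 91. In HIBI pups the counts of the list were 4 and 5, 3 and 8, and 6 and 1, beside 54 and 78, 99 and 120, and 58 and 67 of all 446. The neuronal miR-128-3p was above the cerebellum by 1.39 in the sham cortex (SE 0.190, adjusted p = 2.01e-05) and differed by -0.08 in the sham striatum/thalamus (adjusted p = 0.728). Other neuronal members, miR-137-3p and miR-132-3p, were above the cerebellum there, by 1.95 (SE 0.600, adjusted p = 0.00975) and 0.83 (SE 0.186, adjusted p = 0.00115). MiR-137-3p was at 5.63 ± 6.98 CPM in the sham cerebellum, under the minimum of 10 CPM, and was tested only through the other regions. Further members were lower in the sham striatum/thalamus than in the cerebellum by edgeR's quasi-likelihood test. They include miR-218-5p at -1.06 (adjusted p = 0.000716), miR-181a-5p at -1.62 (adjusted p = 6.36e-06), and miR-181c-5p at -0.88 (adjusted p = 0.00047). MiR-25-3p and miR-106b-5p, of a cluster that is active in proliferating progenitors, were lower in the sham striatum/thalamus than in the cerebellum by -3.18 each (adjusted p = 8.55e-09 and 1.14e-06). The miR-9 arms, at -0.97 and -0.89 in the same comparison, lay near the list's median of -0.88, and miR-124-3p, at 0.36, lay above it.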

How the data were processed

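Small RNA libraries were prepared from 200 ng of RNA. Reads were aligned by the authors with bowtie2 to the miRBase set of mature mouse sequences, and the deposited values are, per region, raw counts per mature miRNA and library, together with their own edgeR columns (log2 fold change, average log2 CPM, p-value, and false discovery rate), which were not used. Versions, the miRBase release, and the rule for reads matching several miRNAs are not given in the sources used here. Each table had 1551 entries, of which 20 castor bean entries (0.000156% of counts) were left out. The 24 libraries held 1254185 to 3406624 counts, and counting error is largest for miR-124-5p, with 185 reads in its lowest library.

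Tests on these counts used edgeR 4.0.16 under R 4.3.3 (TMM; average above 10 CPM; quasi-likelihood test) and, as an alternative, DESeq2 1.42.0. HIBI was compared with sham within a region (8 libraries), regions within sham or HIBI pups (12 libraries), and injury effects between regions in 1 model of all 24. Levels are CPM scaled by TMM over 24 libraries, so they can differ from a fit's own scaling. Arm ratios used raw counts with a pseudocount of 0.5, and levels a pseudocount of 1 on the log2 scale, with exact or permutation tests in Python 3.11.15 (NumPy 2.4.6, SciPy 1.17.1). The 3 regions were paired by pup because the labels give them the same subject number, and the edgeR fits with this replicate block were an alternative. HIBI and sham pups are different animals and could not be paired. For HIBI against sham within a region, p-values measure the spread between pups, 1 library each. The main edgeR fits between regions and of injury effects took the 3 libraries of a pup as separate, without the pairing. The sign-flip tests used the differences between regions within a pup.

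The members, lists, and tests were chosen with earlier results of these data known. Named miRNAs were the 4 arms, any miRNA sharing their seed or named miR-9b or miR-124b, the 3 most correlated with each arm, and called members of the neural list, plus marker lists by summed CPM. MiR-25-3p, miR-106b-5p, and miR-128-3p were picked from the neural list for their values. Alternatives were other scalings, CPM minimums, tests, pseudocounts, each pup left out, the replicate block, and a loess correction (span 0.75) for G and C content, which was chosen after the data had been seen. The scripts were tested on simulated data.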

Additional observations from a re-analysis of the deposited data

Results flagged for a closer look

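In the striatum/thalamus of sham pup 2, miR-124-5p was at 171 CPM, above 110.1 to 120.3 CPM in the other sham pups. The gap was 0.832 of the range of the 4 pups (Dixon's test for 4 values, past the 95% critical value). In all, 42 groups were examined (4 arms and 3 ratios in 6 groups), this was the 1 found, and chance gives about 1 in 20 groups.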

How the results depend on the processing

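Depth limits miR-124-5p most, at 185 to 1396 reads per library. Over the main fits and the alternatives other than leaving out a pup, between 34 and 106 miRNAs of all those tested passed HIBI against sham in the cerebellum, 12 to 54 in the striatum/thalamus, and 13 to 86 in the cortex, and the median log2 difference of all miRNAs moved by -0.19 to 0.28. The highest counts came with no CPM minimum, where 1315, 1265, and 1290 miRNAs were tested, against 434, 436, and 410 in the main fits. The replicate block (pup) changed no call of an arm other than those given for the cortex against the striatum/thalamus in HIBI pups, where 3 arms and 167 of all 446 miRNAs passed with it.

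The number of arms that passed changed in 3 of the regional comparisons with another scaling, minimum, or test. With no CPM minimum it was 0 in the sham cortex against cerebellum and 3 in the sham cortex against striatum/thalamus, where miR-9-3p was gained. In the HIBI cortex against striatum/thalamus the number of arms was 2 with upper quartile scaling, with RLE scaling, with the arms left out of library sizes and TMM, and with no CPM minimum, 0 with an average above 1 CPM, and 3 with DESeq2. Of all miRNAs there, 125 of 446 passed in the main fit, 96 of 737 above 1 CPM, and 159 of 446 with DESeq2. Upper quartile scaling, RLE scaling, and the arms left out gave 122, 129, and 129 of 446, and no minimum 108 of 1414. With each pup left out in turn the number of arms ran from 0 to 1 for HIBI against sham in the cerebellum and in the striatum/thalamus, from 1 to 3 for the sham striatum/thalamus against cerebellum and cortex against striatum/thalamus, and from 0 to 3 for the HIBI cortex against striatum/thalamus. In this last comparison no arm passed without pup 4 or 7, where 47 of 446 and 23 of 443 miRNAs did. Without pup 5, 3 arms and 124 of 441 miRNAs passed. In the sham striatum/thalamus against cerebellum, 1 arm and 239 of 427 miRNAs passed without pup 8. In the sham cortex against striatum/thalamus, 1 arm passed without pup 2, 3, or 8. Of all miRNAs, 117 of 426, 109 of 421, and 95 of 427 did so. For HIBI against sham, the arm in the cerebellum passed without pup 1, where 62 of 430 miRNAs did. The arm in the striatum/thalamus passed without pup 5, where 38 of 427 did.

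Reversed values were of arms whose difference did not pass. For HIBI against sham in the cerebellum, miR-124-3p was 0.14 with library sizes only, and miR-9-5p and miR-9-3p were -0.21 and -0.11 with the G and C correction. In the sham cortex against cerebellum, miR-9-5p was 0.013 with an average above 1 CPM and 0.015 with no minimum, and in the sham cortex against striatum/thalamus miR-124-3p was 0.048 and 0.091. MiR-124-3p in the HIBI striatum/thalamus against cerebellum was 0.036 with RLE scaling, 0.036 with DESeq2, and 0.00084 with the arms left out of TMM. For the injury effect of the other regions minus that of the cerebellum, miR-124-5p was -0.14 with library sizes only, -0.030 with RLE scaling, -0.037 with the arms left out of TMM, -0.021 with an average above 1 CPM, -0.084 with no minimum, and -0.029 with DESeq2. For the same effect, miR-9-5p and miR-9-3p were 0.14 and 0.13 with the G and C correction and 0.15 and 0.14 when the replicate block was added. Causes were not tested.

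With a pup left out, the values that changed sign ran as follows. For HIBI against sham, miR-124-3p ran from -0.16 to 0.064 in the cerebellum and from -0.076 to 0.17 in the cortex, and miR-9-3p from -0.042 to 0.12 in the cortex. In the striatum/thalamus, miR-9-5p ran from -0.80 to 0.031, miR-9-3p from -0.78 to 0.12, and miR-124-5p from -0.21 to 0.053. MiR-124-3p ran from -0.22 to 0.0045 in the sham cortex against striatum/thalamus and from -0.10 to 0.043 in the HIBI striatum/thalamus against cerebellum. The injury effect of the other regions minus that of the cerebellum ran from -0.20 to 0.13 for miR-124-3p and from -0.068 to 0.20 for miR-124-5p. The log2 arm ratio of miR-9 ran from -0.21 to 0.19 for HIBI against sham in the striatum/thalamus, and between regions from -0.015 to 0.11, -0.13 to 0.091, and -0.0028 to 0.14. The log2 ratio of miR-9-5p to miR-124-3p, HIBI against sham, ran from -0.13 to 0.53 in the cerebellum, -0.41 to 0.25 in the striatum/thalamus, and -0.32 to 0.065 in the cortex.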
